A study of Mus musculus with 8 samples.

Results

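Neurotensin is a short peptide that endocrine cells of the small intestine, above all of its distal part, release after a fatty meal. The examined genes were Nts, which encodes the neurotensin precursor, and the genes of its receptors Ntsr1, Ntsr2 and Sort1. Members were the probes whose gene name in the scanner files is Nts, Ntsr1, Ntsr2 or Sort1. These were 7 of 55681 probes: 1 for Nts and 2 for each receptor. Of the 4 genes, 3 were measured above background and tested among 23282 genes, and Ntsr2 was not.

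The arrays hold total RNA of small intestine from mouse embryos at stage E18.5, with 4 wild-type samples labelled control and 4 samples labelled Rfx6 knockout. The knockout embryos carried Rfx6-/- in every tissue: floxed mice (Rfx6f/+) were crossed with CMV-Cre mice, whose Cre is active in all cells, and the resulting Rfx6+/- heterozygotes were intercrossed. Rfx6 is a transcription factor of endocrine cells of gut and pancreas, and the study asks which intestinal genes depend on it. Strain, sex and litter are not given in the labels, and because the labels do not say how the samples were obtained from embryos, p-values measure the spread between these samples. The whole organ was sampled, so fewer cells of a type and less RNA per cell cannot be told apart in any value below.

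The precursor made from Nts is cut at pairs of basic residues into neurotensin and the related peptide neuromedin N. NTSR1 is the high-affinity receptor and couples through Gq to phospholipase C. NTSR2 binds neurotensin with lower affinity, and sortilin, the product of Sort1, is a sorting receptor of the VPS10 family that also binds neurotensin and was once named neurotensin receptor 3 for it. In the intestine neurotensin is known for promoting fat uptake, slowing motility and supporting mucosal growth.

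The Nts probe lies at chr10:101944967-101945026 on mm9, minus strand, and starts at base 543 of NM_024435. It is shown because it covers the coding part that the value of Nts depends on. Its capitals mark a lysine codon followed by an arginine codon, a pair at which prohormone convertases cut; the codons just before it are those of the carboxy-terminal part of neurotensin. The Sort1 probe shown with it starts at base 2243 of NM_019972. Its 60 bases span chr3:108157150-108159198 on mm9, a stretch of 2049 bases, so it crosses a splice junction and reads spliced sortilin RNA.
Nts probe: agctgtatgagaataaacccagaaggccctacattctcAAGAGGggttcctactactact
Sort1 probe: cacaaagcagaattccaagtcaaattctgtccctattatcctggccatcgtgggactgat

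The other Sort1 probe lies at chr3:108164349-108164408 and starts at base 6674 of the transcript. The Ntsr1 probes lie at chr2:180279625-180279684 and chr2:180277825-180277884, starting at bases 3856 and 2056 of NM_018766. The Ntsr2 probes lie at chr12:16666797-16666856 and chr12:16666717-16666776, starting at bases 1301 and 1221 of NM_008747. All of these receptor probes are on the plus strand of mm9.

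Nts was almost lost from the knockout intestine. Its processed signal, an intensity in scanner units after background subtraction, was 6023, 4684, 5371 and 4677 on control arrays 1 to 4. On knockout arrays 1 to 4 it was 51.1, 63.3, 48.6 and 62.1. All control arrays lay far above all knockout arrays. Once the arrays were scaled, the smallest ratio between a control and a knockout array was 68.6 and the largest 134.

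Levels below are log2 of the signal relative to the 75th percentile of the same array. The Nts level was 2.93 ± 0.22 (SD, n = 4) in the control group. In the knockout group it was -3.63 ± 0.27 (SD, n = 4). The log2 difference, knockout minus control, was -6.57 (standard error 0.16; limma adjusted p 7.5e-08 over all genes tested; exact two-sided permutation p 0.0286, the smallest that 4 against 4 arrays can give). That is a 94.9-fold fall, with a 95% interval from 74.0-fold to 122-fold. Groups did not overlap for 14.6% of all genes tested, and 4.92% were called at an adjusted p under 0.05, 2.59% lower and 2.33% higher. With arrays centred on their medians 253 genes were lower and 545 higher, in place of 602 and 543.

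**Figure D1:**
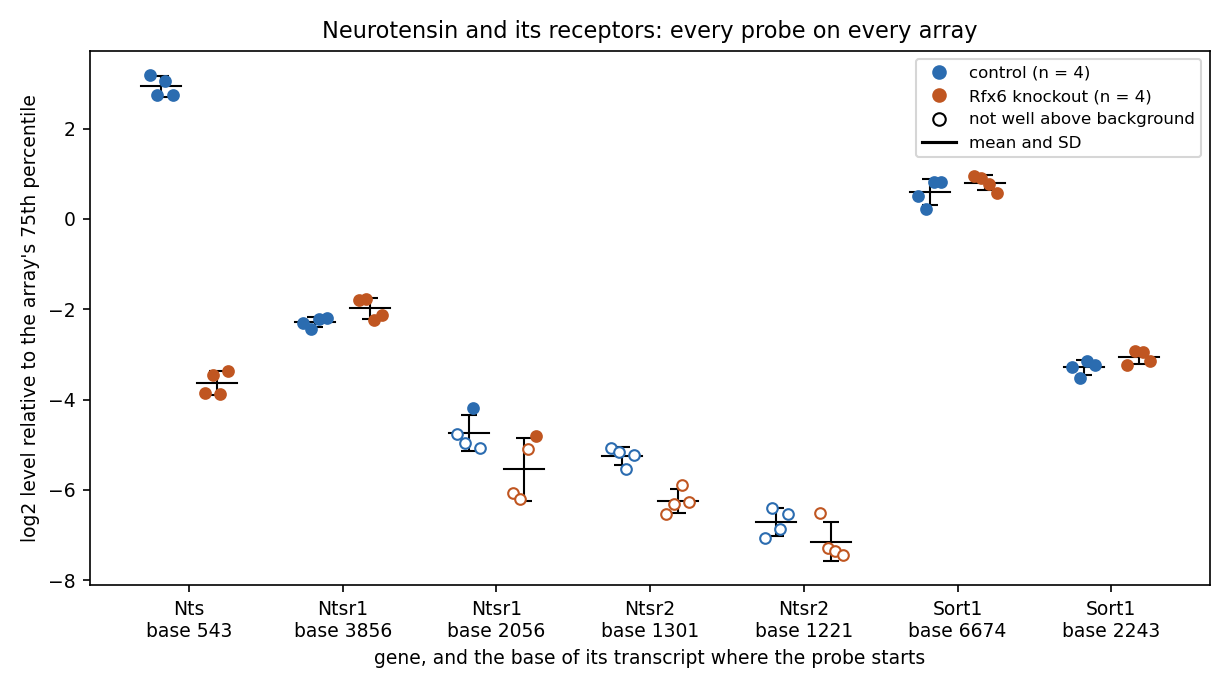
Log2 level of each of the 7 probes on the 4 control (blue) and 4 Rfx6 knockout (orange) arrays, with group means and SD; open symbols are spots not well above background, and levels are not comparable between probes. Nts is the one probe with filled symbols whose groups are far apart, at 2.93 against -3.63.

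The remaining Nts signal in the knockout was small but above background. The spot was well above background on 4 of 4 knockout arrays. The error that Feature Extraction assigns to the signal was 9.96, 7.94, 6.73 and 7.33 units on knockout arrays 1 to 4, and the raw spot mean was between 1.74 and 2.07 times the local background. On the control arrays the raw spot mean was between 71.8 and 98.0 times the local background. Knockout arrays 2 and 4 lay above arrays 1 and 3, with levels of -3.44 and -3.36 against -3.86 and -3.88. The lowest signal called well above background was 35.9 units on knockout array 1 and 19.9, 19.8 and 16.0 on the others, so array 1 had the narrowest margin.

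The size of the fall differed between ways of processing the signal. With normexp correction and an offset of 50 the difference was -5.40, a 42.1-fold fall, and with the values of the authors' series matrix it was -5.33, a 40.2-fold fall. The call itself held under these and every other alternative run.

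**Figure D2:**
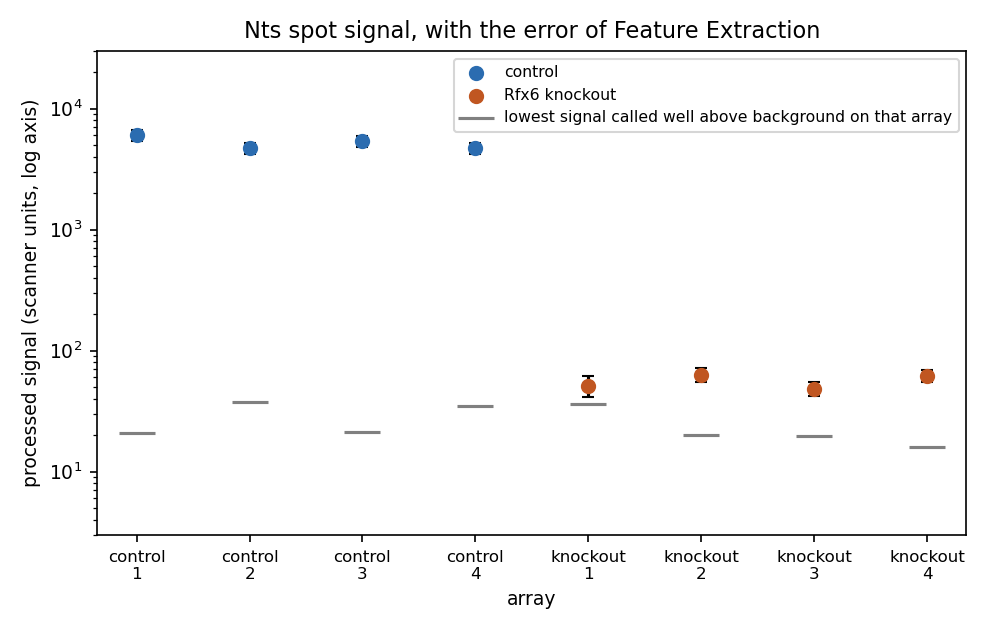
Processed signal of the Nts spot on each array in scanner units (log axis), with the signal error of Feature Extraction as bars and the lowest signal called well above background on that array as a grey dash. The control spots lie between 4677 and 6023 units and the knockout spots between 48.6 and 63.3, above the dash on all 4 arrays.

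The slide held the arrays in 2 rows. Row 1 carried 1 control and 3 knockout arrays, and there the Nts difference was -6.75. Row 2 carried 3 control arrays and 1 knockout array, and there it was -6.71. With the row as a block it was -6.73 (standard error 0.16; limma adjusted p 6.2e-07).

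The RefSeq promoter table holds 3 of the 4 genes, Nts, Ntsr1 and Ntsr2. The Nts stretch is shown because Nts is the member that changed. It covers the 250 bases before the start, chr10:102490419-102490668 on GRCm38.p6, minus strand, in capitals where a searched motif was found.
Nts upstream: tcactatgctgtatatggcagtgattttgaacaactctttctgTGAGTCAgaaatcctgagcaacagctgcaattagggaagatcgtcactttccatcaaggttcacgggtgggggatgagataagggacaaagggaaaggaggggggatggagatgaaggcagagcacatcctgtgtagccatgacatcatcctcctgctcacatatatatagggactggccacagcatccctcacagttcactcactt

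Motifs were searched on both strands. The capitals mark TGANTCA, the AP-1 element bound by Fos and Jun proteins, which starts 207 bases before the Nts start; 6.75% of 32817 upstream windows of 250 bases hold it. The core GTTGCC of the X-box that RFX factors bind was not found in the windows of Nts, Ntsr1 or Ntsr2 and occurs in 10.43% of all windows. The cyclic AMP response element TGACGTCA was not found in these windows either and occurs in 1.55% of all. These are matches of the letters as written, with N for any base. Variant spellings of a site were not searched, and no binding was measured.

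Ntsr1 was detected at a low signal in both groups. At the probe starting at base 3856 its signal was 133, 130, 138 and 153 units on control arrays 1 to 4. On knockout arrays 1 to 4 it was 213, 203, 152 and 145 units. Control levels averaged -2.29 ± 0.11 (SD, n = 4), and knockout levels averaged -1.98 ± 0.23 (SD, n = 4). Knockout arrays 1 and 2 lay above all controls, and arrays 3 and 4 within or just above their range. The log2 difference was 0.31 (standard error 0.12), with a 95% interval from 0.03 to 0.59. It missed the threshold over all genes (limma adjusted p 0.208; exact two-sided permutation p 0.0857).

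The other Ntsr1 probe, starting at base 2056, was well above background on 1 of 4 control and 1 of 4 knockout arrays. Its signals ran from 20.7 to 35.6 units on control and from 9.44 to 22.7 on knockout arrays. It did not pass the filter, so the Ntsr1 value rests on 1 probe.

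At neither probe did Ntsr2 rise well above background on any of the 8 arrays. At the probe starting at base 1301 the signal was 19.7, 19.6, 13.8 and 18.7 units on control arrays 1 to 4 and 8.0, 8.69, 12.1 and 8.22 on knockout arrays 1 to 4. The groups do not overlap in these values, all of which are below the detection limit. Of the 13967 probes not well above background on any array, 1.42% were lower without overlap. A difference at or below that of this probe was found for 1.44% of them, and their median difference was -0.39. By order alone, 1 of the 70 splits of the arrays gives such a separation, so no weight is put on it. Since both groups were below background, no fold is given. At the probe starting at base 1221 signals lay between 3.69 and 8.33 units on all 8 arrays. Ntsr2 was therefore not detectable at this signal.

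Sort1 was expressed in both groups with overlapping values. At the brighter probe, starting at base 6674, the signal was 944, 815, 1130 and 1238 units on control arrays 1 to 4 and 1433, 1283, 1231 and 944 on knockout arrays 1 to 4. Control levels averaged 0.59 ± 0.29 (SD, n = 4), and knockout levels averaged 0.80 ± 0.17 (SD, n = 4). Control array 2 was the lowest of all 8. The log2 difference of 0.21 (standard error 0.15) missed the threshold (limma adjusted p 0.480). Its 95% interval ran from -0.13 to 0.55, so neither no change nor a rise to 1.46-fold is outside it.

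The splice-crossing Sort1 probe gave much the same difference from far dimmer spots. Its signals ran from 61.2 to 74.3 units on control and from 72.0 to 93.0 on knockout arrays. The difference was 0.23 when every probe was tested (standard error 0.11, limma adjusted p 0.315). A further probe is described in the files as sortilin 1 but named by its transcript, ENSMUST00000090564, and so lies outside the rule; it was looked up after the values were seen. It differed by -0.11 (standard error 0.13, limma adjusted p 0.642).

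The genes around neurotensin were read from 7 lists of 62 genes that cover processing, breakdown, sortilin traffic and receptor signalling. Of the 56 that were tested, 2 were lower, Mme and Gna11, and 2 were higher, Lrpap1 and Plcb1. These 4 are 7.14% of those tested, against 4.92% of all genes, and the median difference was 0.03 against -0.05 over all genes.

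None of 6 genes for prohormone processing was called. Pcsk1 and Pcsk2, which encode the convertases that cut the neurotensin precursor at basic pairs such as the one in the probe above, differed by -0.12 and -0.14 (limma adjusted p 0.554 and 0.301). Cpe, the carboxypeptidase that trims the cut ends, differed by 0.12. The median difference of this list was -0.10.

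Of 6 peptidases that break down neurotensin or neuromedin N, 1 fell. Mme, which encodes neprilysin, a membrane peptidase that cleaves neurotensin, had levels of 1.97, 1.94, 1.81 and 1.93 on control arrays 1 to 4. On knockout arrays 1 to 4 they were 0.77, 0.18, 0.90 and 0.34. All knockout values lay below all controls, and they were more spread. Mme differed by -1.36 (standard error 0.16, limma adjusted p 0.0020). Both of its probes that passed the filter were called, and it was called under 20 of 20 alternatives. The other peptidases, Thop1, Nln, Ace, Prep and Anpep, had differences between 0.11 and 0.12, none called.

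Among the relatives of sortilin, Sorl1 stood closest to the threshold. Its levels were 0.33, -0.07, 0.71 and 0.63 on control arrays 1 to 4. On the knockout arrays they lay between 0.95 and 1.23, above all controls. The difference of 0.69 (standard error 0.17) missed the threshold (limma adjusted p 0.0533). The adjusted p ran from 0.0243 to 0.187 over the alternatives and was under the threshold in 9 of 20. Sorcs1 differed by -0.09 and Sorcs2 by 0.58 (limma adjusted p 0.633 and 0.305), and Sorcs3 never rose well above background.

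In the sortilin sorting machinery 1 of 11 genes was called. Lrpap1, which encodes the chaperone RAP that also binds sortilin, was higher by 0.36 (standard error 0.08, limma adjusted p 0.0396). That call was lost when any array except control 2 was left out (adjusted p from 0.0616 to 0.116, against 0.0481 without control 2). It was also lost with the slide row as a block (0.106), with its 2 probes averaged (0.131), with median centring (0.0712) and without the filter (0.120), and 1 of the 2 probes was called. Gga2, an adaptor that sorts sortilin at the Golgi, differed by -0.46 without overlap of the groups and missed the threshold (limma adjusted p 0.0564). It was under the threshold in 4 of 20 alternatives. The retromer genes Vps35, Vps26a, Vps26b and Vps29 had differences from -0.34 to -0.18, none called. None of the 10 tested genes for ligands and partners of sortilin was called, among them Grn (0.27), Psap (0.16) and Ngfr (0.09).

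In receptor signalling 2 of 17 genes were called. Plcb1, a phospholipase C activated by Gq, had levels of -1.19, -1.20, -1.09 and -1.10 on control and -0.52, -0.48, -0.76 and -0.79 on knockout arrays 1 to 4. It was higher by 0.51 (standard error 0.09, limma adjusted p 0.0185), and the call was lost without control 1, knockout 1 or knockout 2 (adjusted p over the left-out arrays from 0.0219 to 0.0631). Of its 3 probes 1 was called. The call was also lost with its probes averaged (adjusted p 0.0737), with the replicate number as a block (0.122) and without the filter (0.0675). Gna11, which encodes a Gq-class alpha subunit, was lower (-0.42, standard error 0.09, limma adjusted p 0.0350). Its call was lost without control 1, 3 or 4 or knockout 1, 2 or 4 (adjusted p from 0.0666 to 0.107). It was also lost with the slide row as a block (0.0585), with median (0.162) or quantile (0.0566) scaling and without the filter (0.110). Gnaq differed by 0.03. Of the related receptors and their ligands, Gpr39, Nmur2 and Nmu were tested and none was called; Nmur1 and Trhr did not pass the filter, and Ghsr and Nms were not well above background on any array.

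**Figure D3:**
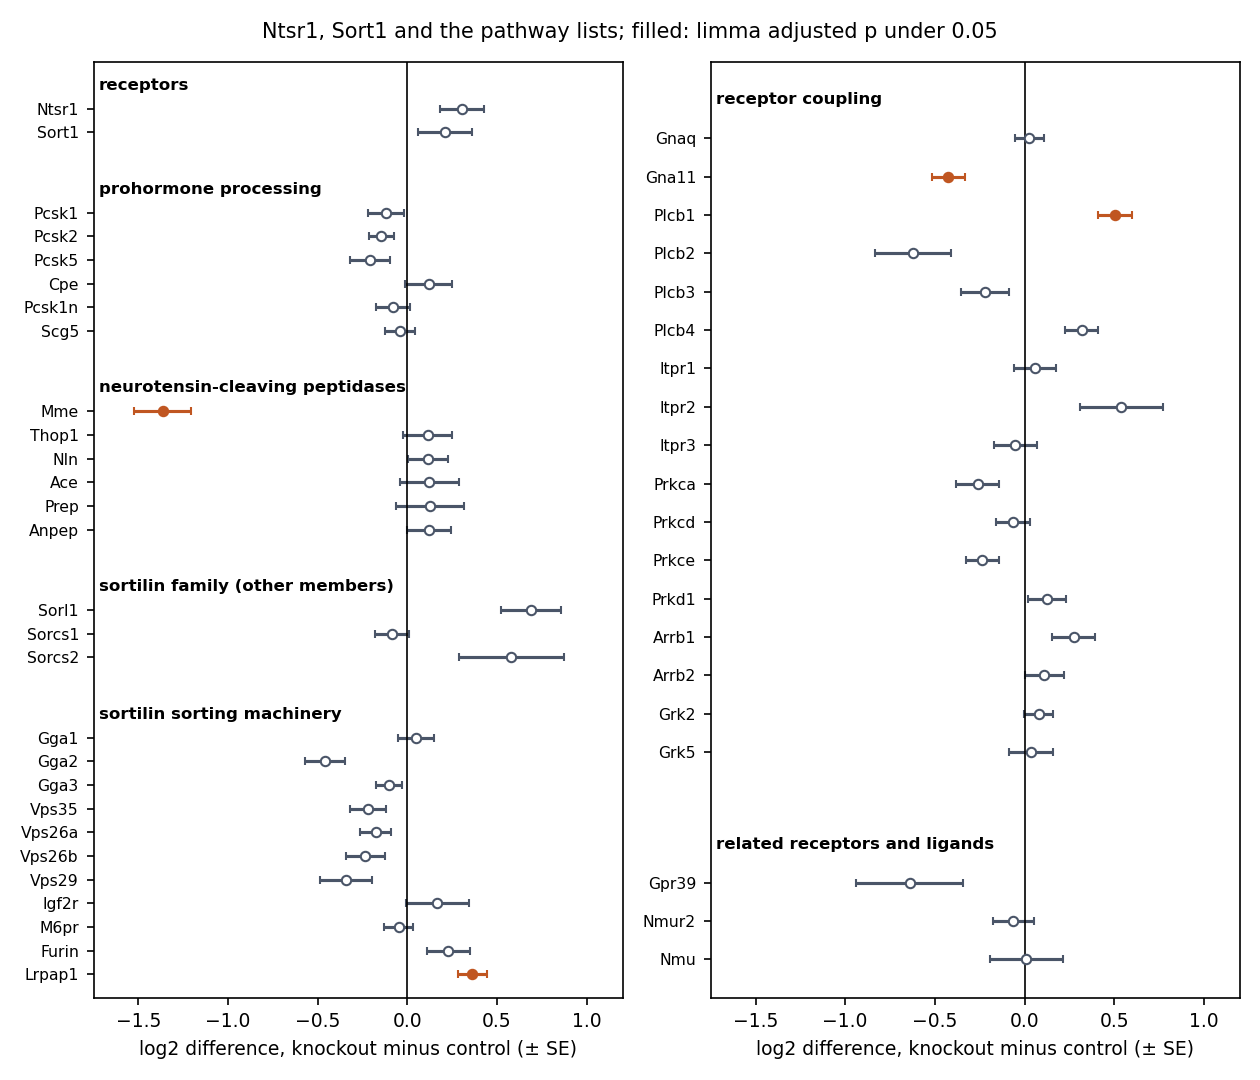
Log2 difference, knockout minus control, with its standard error for Ntsr1, Sort1 and 46 tested genes of 6 of these lists, without the ligands and partners of sortilin; filled orange symbols passed the limma test over all genes. The called genes are Mme at -1.36, Gna11 at -0.42, Lrpap1 at 0.36 and Plcb1 at 0.51.

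Endocrine cells that make neurotensin are known to make other peptides too, so these were read beside it. Of 10 other gut endocrine peptide genes, 7 were lower, 1 higher and 2 not called. Of all genes tested, 2.59% were lower and 2.33% higher. The list was chosen with earlier results of these data known. Its median difference was -3.91, which stays as it is with Gcg and Gip at their bounds. Gcg, the glucagon-like peptide precursor, and Gip, the incretin, were not well above background on any knockout array. In the processed signal they were at least 111-fold and at least 172-fold lower, and these bounds hold for that signal only. Differences were smaller with normexp correction (Gcg -5.08, Gip -5.48) and with the series matrix (Gcg -5.07, Gip -5.49). Cck, which encodes cholecystokinin, differed by -5.16 and Sct, which encodes secretin, by -1.55. Pyy, made with neurotensin in the distal gut, reached 1.41 on knockout array 1, where the other 3 ran from -2.78 to -2.56 and the controls from 0.35 to 1.38. It was not called (difference -2.65, limma adjusted p 0.127); without knockout array 1 the adjusted p was 1.6e-04. Nts on that array, at -3.86, was not raised. The calls of Insl5 (-1.38, limma adjusted p 0.0400) and Tac1 (0.45, limma adjusted p 0.0406) were each lost with the slide row as a block (0.104 and 0.101) and without the filter (0.121 and 0.122), and that of Insl5 with median centring (0.0624). The replicate number as a block lost each call too (0.0612 and 0.172). Both were also lost on leaving out single arrays, with adjusted p up to 0.105 and 0.106; Insl5 kept its call without control 2 or knockout 3, and Tac1 without control 3.

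**Figure D4:**
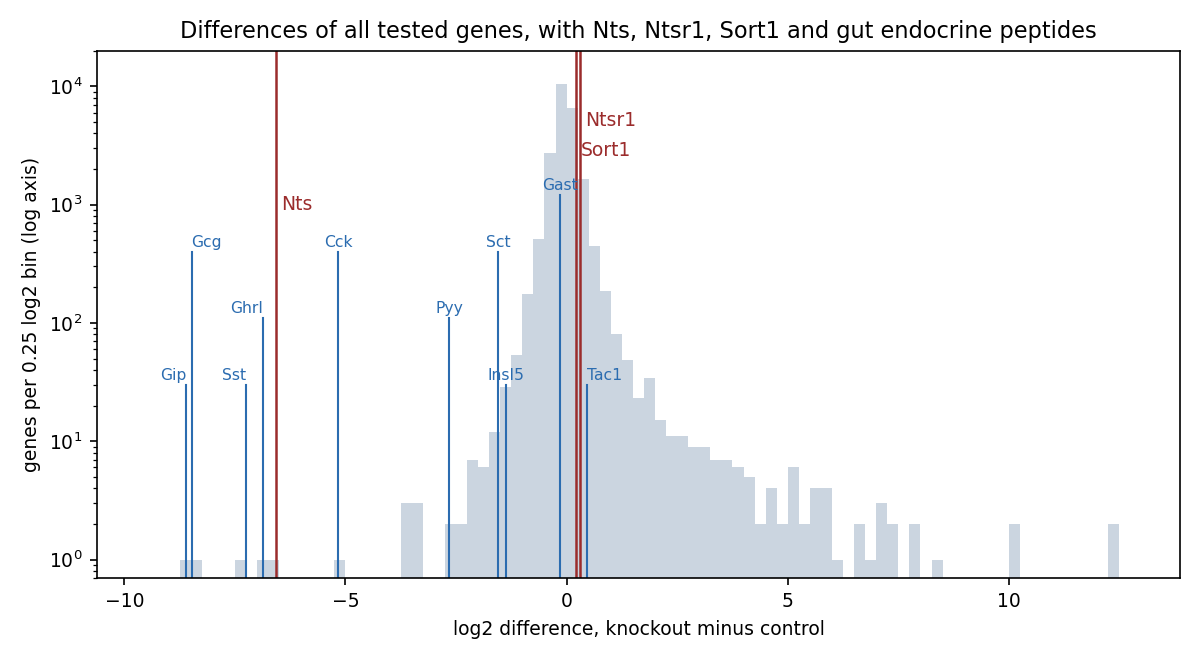
Histogram of the log2 differences, knockout minus control, of all 23282 tested genes (log count axis), with Nts, Ntsr1 and Sort1 as red lines and the 10 other gut endocrine peptide genes in blue. Nts lies at -6.57, beside Gip, Gcg, Sst, Ghrl and Cck, while Ntsr1 and Sort1 lie at 0.31 and 0.21 inside the bulk of genes. Gip and Gcg are drawn at fitted values from knockout spots below background, and Sst was well above background on only 1 knockout array.

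By Pearson correlation of levels over the 8 arrays, the genes most like Nts were Sst, Gcg, Cck, Ghrl and Gip, with r from 0.996 to 0.999. These arrays fall into 2 groups far apart, so such an r mostly restates the group difference. When each array was taken as its deviation from its group mean, the highest r were 0.995 for Stmn4, 0.984 for Plch2, 0.979 for Cep89 and 0.962 for Atp6v1g2, and the fifth gene was an unnamed intergenic transcript. None of the peptide genes was among them. For Sort1 the genes most like it in level were Kif5a, Trim62, Itga6, Pmepa1 and Exosc10 (r from 0.988 to 0.989), and in deviations Trim62, Kctd17, Vgf, Tnc and Itga6 (r from 0.991 to 0.994). All of these are the highest among the tested genes over 8 arrays that share scaling and hybridisation, and are given as a description.

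Marker lists of cell types were read on the same arrays. Of the enterocyte markers 5 of 5 were well above background on every array, as the tissue label implies, with a mean level between 5.67 and 5.93 on control and between 5.55 and 5.82 on knockout arrays; Fabp1 and Fabp2 were lower (-0.65 and -0.42). Of 6 general endocrine cell markers 4 were tested, with mean levels of 1.04 to 1.54 on control and 0.86 to 0.97 on knockout arrays. Chga and Chgb, granule proteins of most gut endocrine cells, differed by 0.26 and 0.17 and were not called, and Scg2 was lower (-1.25, limma adjusted p 0.0115). Isl1 differed by -0.86 and was not called (limma adjusted p 0.0823). Of the untested markers, Neurod1 was well above background on 2 control and 3 knockout arrays. Pax6 was so on 2 control arrays and on no knockout array. None of the 7 tested of 8 enteric neuron markers was called, with mean levels of -0.19 to 0.10 on control and -0.01 to 0.19 on knockout arrays.

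Of 6 stomach epithelium markers, 4 were higher on the knockout arrays, Gkn1, Gkn2, Tff1 and Atp4a. The mean level of the list was between -4.68 and -3.35 on control and between 1.24 and 1.94 on knockout arrays. Neither Gkn2 nor Atp4a rose well above background in the control group, and Gkn1 and Tff1 each did on 2 of 4 control arrays. The control mean therefore includes spots below background. Tff1 varied widely between the controls (SD 3.73). Of 4 liver markers 1 was higher and of 4 goblet cell markers 1 was higher. None of the tested markers of glia, smooth muscle, fibroblasts, endothelium, leukocytes or exocrine pancreas was called. The 4 tested pancreas markers were nevertheless well above background on all 8 arrays. Cpa1 differed by -0.71, Cela1 by 0.18, Prss1 by -1.27 and Ctrb1 by -0.48. Their control SDs were 0.80, 0.39, 0.86 and 0.81 in the same order. The part of these shifts, or of pancreatic RNA, in the values of Nts, the other peptide genes, Mme or the receptors was not tested.

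The 75th percentile of signal ran from 636 to 741 units over the arrays, and 57.5% to 67.2% of probes stood well above background. The Rfx6 probe did not differ between the groups beyond their spread (0.38, standard error 0.29, limma adjusted p 0.503), so it is no check of the genotypes, which are taken from the labels. The labels do not say which exons were deleted, and whether the probe lies within them was not settled here.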

How the data were processed

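RNA of 4 control and 4 Rfx6 knockout samples was hybridised to single-colour Agilent arrays, 1 sample an array, on 1 slide with 1 scan. The authors deposited scanner files of Agilent Feature Extraction 10.10.1.1, per the submitters' processing notes, with an intensity for each spot; its processed signal is an intensity after background subtraction, per the file headers, with the probe grid on mm9. The authors' series matrix holds an intensity per spot that ranks spots as the scanner medians do (Spearman 1) and has a median of 129.6 units on each array. Its arrays thus share a common centre, but a shared rank order does not settle whether it is linear in the scanner signal. How it was made is not given in the sources used here, and it served as an alternative.

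Of 62976 spots, 3671 control spots and between 153 and 355 outlier spots per array were left out; no member spot was an outlier or saturated. Each processed signal was put on the log2 scale relative to its array's 75th percentile. Probes well above background on all 4 arrays of a group were kept (31668 of 55681), and a gene was read from its brightest probe on average. Groups were compared with limma 3.58.1 in R 4.3.3, with Benjamini-Hochberg adjustment over 23282 genes and a threshold of 0.05; of these genes 110 lacked a value on some array, none of them a member. Single values were also given an exact permutation test over the 70 splits. Genes in GRCm38 tables were matched by symbol, accession or synonym, for 29676 of the probes. A gene not well above background in a group has a bound only: the brighter group's mean against, per array, the higher of its own signal and the lowest signal well above background. The fit was tested on simulated data. The number of arrays limits the precision.

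The members and lists were chosen with earlier results of these data known. Named are the members, called list genes, list genes whose role is described, and the 5 genes most like Nts and Sort1. Alternatives were normexp background, quantile and median scaling, no filter, a filter on all 8 arrays, averaged probes per gene, each probe by itself, the series matrix, replicate and slide row blocks, array weights, a trended robust prior and leaving out each array. Some genes of the lists are counted but their values are not reported here.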

Additional observations from a re-analysis of the deposited data

Results flagged for a closer look

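Among 30 groups of 4 values, covering the 3 tested members and the called genes of the lists, 1 had an array far from the other 3, where chance gives about 1 in 20. Sst, the somatostatin gene, stood at 1.75 on control array 2, below the other controls at 1.98 to 2.03. No value of Nts, Ntsr1 or Sort1 stood apart in this way.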

How the results depend on the processing

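Over 20 alternatives the Nts difference ran from -6.73 to -5.33 and was called in 20 of 20, with adjusted p from 1.3e-09 to 1.3e-04. The Ntsr1 difference ran from 0.16 to 0.39 (adjusted p from 0.135 to 0.465) and that of Sort1 from 0.08 to 0.29 (adjusted p from 0.298 to 0.737); neither was called in any of the 20. Ntsr2 gave no value, since both probes were not well above background. On leaving out 1 array Nts ran from -6.66 to -6.48, Ntsr1 from 0.23 to 0.39 and Sort1 from 0.08 to 0.29. Of all genes, 1145 were called; without the filter the count was 501 and with array weights 2330, and the cause was not tested. Of the 66 tested genes in all 8 lists, 12 were called, 7 without the filter. On leaving out 1 array, with fewer samples, the counts ran from 582 to 1109 and from 7 to 13; the count of all genes moved by over 1.5 times without control 1 (596), control 3 (718), knockout 1 (599) or knockout 2 (582), and that of list genes without control 1 (7) or knockout 2 (7).

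Replicate numbers did not pair the samples: the correlations of deviations of same-numbered arrays were -0.07, -0.17, 0.07 and -0.41. With the replicate block 416 genes and 7 list genes were called, and the Nts difference kept its call (adjusted p 1.3e-04). Signal over background limits Ntsr1, whose spot mean was between 3.18 and 4.62 times its local background, and Ntsr2, which was below detection.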

Other observations

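The genes most like Ntsr1 over the 8 arrays were looked up after the values were seen, as the rule for named genes covers Nts and Sort1. In levels they included Grhl3 (r 0.973), Evpl (0.961), Phlda3 (0.957) and Smad9 (0.956). In deviations from the group means they included Grhl3 (0.974), Plcb1 (0.958), Palld (0.954) and Krt78 (0.951). Grhl3 encodes a transcription factor of surface and stratified epithelium, and Evpl and Krt78 encode an envelope protein and a keratin of stratified epithelium. Grhl3 differed between the groups by 1.27, Krt78 by 2.60 and Evpl by 0.57. Plcb1 differed by 0.51, Smad9 by 0.27, Phlda3 by 0.19 and Palld by 0.01. Each r is over 8 arrays and among the highest of all tested genes, and is given as a description.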
